A study of Caenorhabditis elegans with 2 samples.

Results

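Of the 5388 autosomal peaks that passed the authors' reproducibility threshold in chromatin immunoprecipitation followed by sequencing (ChIP-seq) of NHR-80, 479 (8.89%) had their summit far upstream of a single gene. Each of these summits fell 500 to 1000 bp upstream of the annotated 5′ end of 1 protein-coding gene. No other protein-coding gene had the summit in its promoter window, which began 1000 bp before a 5′ end and finished 200 bp after it. The thresholded list held 7038 peaks, 7020 of them on nuclear chromosomes, and the 131 peaks on X that met the same distances were not members. Members were chosen by position alone and not by signal. They are called promoter peaks only because of their distance to a start, since transcript starts were not measured in these samples. The 479 peaks lay upstream of 453 genes, of which 427 had 1 such peak and 26 had 2.

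The material was whole hermaphrodite young adults of Caenorhabditis elegans strain OP460, genotype unc-119(tm4063) III with the insertion wgIs460, taken 64 hours after synchronisation as starved L1 larvae. The insertion expresses NHR-80 carrying GFP and FLAG at its C terminus, so the tagged copy and not the native protein was followed. The sample description names an antibody to GFP, whereas another label gives nhr-80 as the antibody. There was 1 group with biological replicates 1 and 2, and the control that the lists were called against was not analysed here, so no condition could be compared and each replicate's own list served as the measure of spread. The label whole organism means that the tissue in which a site was bound was not measured.

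NHR-80 is a nuclear hormone receptor related to mammalian HNF4, and it is known for controlling fatty acid desaturase genes and for its part in the long life of animals without a germline. C. elegans genes are compact, many sit in operons, and most transcripts receive a spliced leader in place of their original 5′ end, so an annotated 5′ end can lie downstream of the point where transcription starts. In the worm intestine, GATA factors such as ELT-2 are the main regulators, and they bind the sequence TGATAA. Sequence well upstream of a start can hold such sites, the end of a neighbouring gene or a gene for a small RNA.

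The stretches around the summits of the strongest members are shown first, because they differ in composition and in whether they hold a GATA-type site. Each run is the RefSeq genome sequence of the ce11 build (WBcel235) within 50 bp of the summit on the strand of the gene. Capitals mark TGATAA or its reverse complement TTATCA, and GAGAGA or its reverse complement TCTCTC. The F16G10.6 window was II:2378661-2378761 on the minus strand, the C09G9.1 window IV:8866238-8866338 on the minus strand and the eat-6 window V:13130467-13130567 on the minus strand. The swsn-7 window was II:8028453-8028553 on the minus strand, that of Y59A8B.24 was V:17951340-17951440 on the plus strand and that of nhr-31 was IV:8030247-8030347 on the minus strand.
F16G10.6: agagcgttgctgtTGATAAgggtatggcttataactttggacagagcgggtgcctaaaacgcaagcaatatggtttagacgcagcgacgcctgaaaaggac
C09G9.1: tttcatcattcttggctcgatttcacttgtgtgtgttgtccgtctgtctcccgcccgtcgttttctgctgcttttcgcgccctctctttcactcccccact
eat-6: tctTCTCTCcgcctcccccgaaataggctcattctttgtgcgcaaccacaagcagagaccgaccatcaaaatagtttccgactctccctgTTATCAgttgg
swsn-7: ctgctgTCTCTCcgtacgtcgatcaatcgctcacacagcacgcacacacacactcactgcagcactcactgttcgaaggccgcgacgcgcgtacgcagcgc
Y59A8B.24: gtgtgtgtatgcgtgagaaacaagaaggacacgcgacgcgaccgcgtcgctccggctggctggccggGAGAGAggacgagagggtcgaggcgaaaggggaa
nhr-31: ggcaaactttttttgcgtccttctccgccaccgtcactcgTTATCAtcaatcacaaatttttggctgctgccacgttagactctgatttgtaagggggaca

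A second set was taken from genes of lipid metabolism, the intestine and transport, because it shows windows with none, 1 and several GATA-type sites. On the plus strand, fat-4 had the window IV:9798561-9798661, acs-2 the window V:15566662-15566762, acs-4 the window III:7167284-7167384 and pgp-9 the window V:17755141-17755241. On the minus strand, elo-9 had the window II:14965042-14965142, asp-1 the window V:19051578-19051678 and ftn-1 the window V:7548185-7548285.
fat-4: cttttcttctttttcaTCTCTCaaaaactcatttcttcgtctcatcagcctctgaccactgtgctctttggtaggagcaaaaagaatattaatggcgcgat
acs-2: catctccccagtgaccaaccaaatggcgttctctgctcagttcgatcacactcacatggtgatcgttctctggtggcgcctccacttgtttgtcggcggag
acs-4: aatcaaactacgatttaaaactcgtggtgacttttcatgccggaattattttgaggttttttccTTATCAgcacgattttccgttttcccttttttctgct
elo-9: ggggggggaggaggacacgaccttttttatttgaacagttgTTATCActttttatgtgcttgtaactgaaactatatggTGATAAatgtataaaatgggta
asp-1: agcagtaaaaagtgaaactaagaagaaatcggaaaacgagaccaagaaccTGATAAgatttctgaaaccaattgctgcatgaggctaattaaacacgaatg
ftn-1: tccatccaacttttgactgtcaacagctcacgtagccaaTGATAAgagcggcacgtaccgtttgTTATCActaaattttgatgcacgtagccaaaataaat
pgp-9: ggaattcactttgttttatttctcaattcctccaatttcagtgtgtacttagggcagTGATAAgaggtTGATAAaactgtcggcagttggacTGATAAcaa

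In these runs fat-4, which encodes a desaturase of polyunsaturated fatty acids, held no TGATAA and 1 GAGAGA match, and acs-2 held neither sequence. The window of elo-9 had 2 TGATAA matches, that of ftn-1 had 2 and that of pgp-9 had 3. In the asp-1 window the match began on the summit base itself, 0 bp away. The swsn-7 and Y59A8B.24 windows were the poorest in A and T among those shown, at 38.6% and 35.6%, against a mean of 59.3% ± 8.37 (SD) over the 479 members.

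Distance from the gene start was examined next, to ask whether members gathered at any point of their range. Between 500 and 1000 bp upstream the density of summits varied 1.36-fold between bins of 100 bp. Averaged over the zone it was close to that of autosomal sequence as a whole. Outside protein-coding genes, which was 54.3% of the zone and 35.8% of autosomal sequence, it was lower, at 105 against 116 per Mb. Inside them it was also lower, at 27.6 against 36.9 per Mb. There were 69.5 summits per Mb of the far-upstream zone (69.5 in replicate 1 and 69.1 in replicate 2), against 169 per Mb of the core zone and 65.3 per Mb of all autosomal sequence. The zones count only bases that lie in the window of 1 gene, 6.89 Mb for the far-upstream zone and 9.30 Mb for the core zone, which ran from the 500 bp limit down to 200 bp past the start. Going outward in bins of 100 bp, members numbered 105, 85, 104, 79 and 106, or 77.5, 62.1, 75.6, 57.0 and 75.5 per Mb. The order of the bins was not the same in each replicate: replicate 1 had 76.8, 62.8, 75.6, 59.1 and 73.3 per Mb and replicate 2 had 71.6, 69.4, 72.7, 64.9 and 66.9 per Mb. Just inside the 500 bp limit on the core side the density was 99.7 per Mb, and it reached 310 per Mb between 100 and 199 bp upstream.

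**Figure D1:**
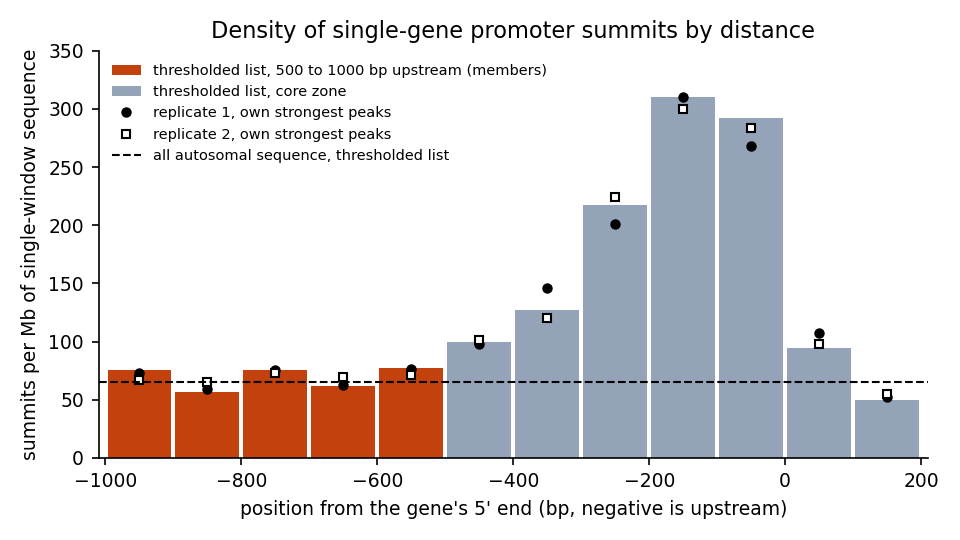
Summits per Mb of sequence belonging to the window of 1 gene, in bins of 100 bp by position from the gene's 5′ end; bars are the thresholded list (members in orange, core zone in grey), circles and squares the strongest peaks of replicates 1 and 2, and the dashed line all autosomal sequence at 65.3 per Mb. The 5 bins of members lay between 57.0 and 77.5 per Mb, below every core bin within 500 bp upstream of the start.

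Of the 5 peaks on each side of a limit, the members ran from 181 to 373 and the excluded peaks from 138 to 1006 at the lower limit. At the upper limit the members ran from 97.3 to 404 and the excluded peaks from 102 to 829. The nearest members inside the lower limit were ZK632.11 and pgm-2, both at 500 bp with signal values of 216 and 181, and acs-4 at 504 bp with 373. Just outside it, sor-1 at 498 bp had 485 and K12H4.5 at 497 bp had 1006. At the other limit, let-23 at 999 bp had 404, while the excluded peaks at aat-8 (1002 bp) and ppm-2 (1003 bp) had 152 and 829.

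By chromosome, III was the densest in members and V the sparsest. Chromosome III had 98 members, or 93.5 per Mb of its far-upstream zone, against 55.8 per Mb and 111 members on V. Chromosome I had 83 members (72.2 per Mb), II had 106 (76.4 per Mb) and IV had 81 (61.6 per Mb). As a share of a chromosome's own thresholded peaks, members ranged only from 7.78% on IV to 9.83% on III.

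What lay beneath the summits was mostly sequence between genes. Of the 479 members, 363 (75.8%) were intergenic, 41 lay in an intron, 21 in a 3′ UTR, 17 in a coding exon, 8 in a 5′ UTR and 29 in a noncoding gene. Core peaks were intergenic in 75.4% of cases and all autosomal peaks in 59.3%. In all, 87 members (18.2%) lay inside a protein-coding gene other than the one they were assigned to, 48 of them in a gene on the same strand as the assigned gene and 39 in one on the opposite strand. In replicate 1's own list the share was 18.0% and in replicate 2's it was 16.8%. Core-promoter summits lay in such a neighbouring gene in 9.09%, 9.07 percentage points less often (95% Newcombe interval 5.53 to 13.0). These intervals cover counting error only, and neighbouring peaks are not independent. The core zone includes 200 bp past the gene's own start, so less of it can belong to a neighbouring gene. The difference was not adjusted for the neighbouring sequence available in each zone. Measuring from the nearest start of any transcript of a gene gave a different set of 574 peaks, 449 of them members. In that set the share was 10.6%.

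Set against the sequence available, members were sparse inside genes. Other protein-coding genes covered 45.7% of the far-upstream zone but held 18.2% of its summits, giving 27.6 per Mb inside them and 105 per Mb outside. Autosomal sequence as a whole had 36.9 per Mb inside protein-coding genes and 116 per Mb outside. Among the named members within another gene, the vha-13 summit lay in the 3′ UTR of cept-2, the pmk-2 summit in the 3′ UTR of pmk-3, the rps-18 summit in the 5′ UTR of sec-61.A and the clec-178 summit in an intron of skn-1. The acs-12 summit lay in the 5′ UTR of amx-3. The sma-2 summit was in an intron of ugtp-1 and the fpn-1.1 summit in an intron of npp-13. For these and every other member inside another gene, the gene named by position need not be the one that the site serves. This was not tested.

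**Figure D2:**
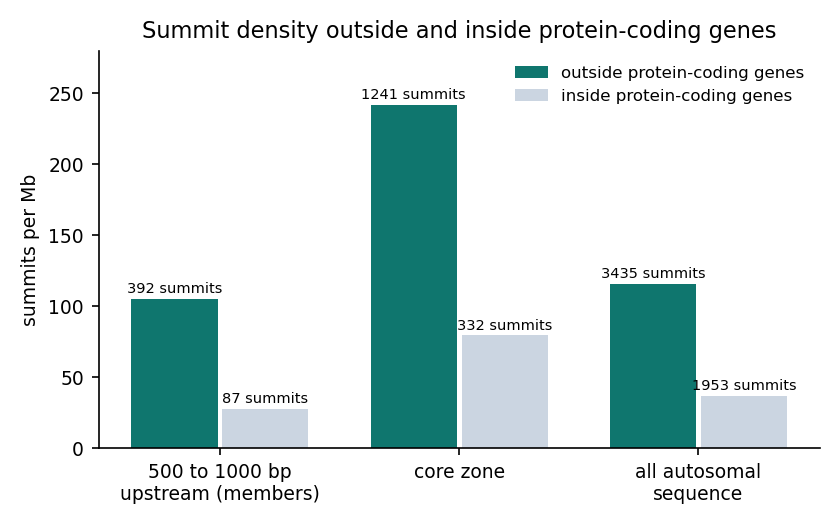
Summits per Mb outside (green) and inside (grey) protein-coding genes, for the far-upstream zone, the core zone and all autosomal sequence; numbers above the bars are summits, and the core zone's inside part includes the gene's own first bases. The far-upstream zone had 105 per Mb outside and 27.6 per Mb inside genes.

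The nearest gene on the far side of the summit was also recorded. For 246 members (51.4%, 95% Wilson interval 46.9 to 55.8) it was a gene on the same strand, whose 3′ end faced the summit at a median of 1052 bp, and in 83 of these it was within 500 bp. For 146 (30.5%, 26.5 to 34.7) it was an oppositely oriented gene whose 5′ end lay at a median of 2714 bp, and the rule itself keeps such starts more than 1000 bp away. Of the core peaks, 59.9% lay behind a same-strand gene and 30.9% faced an opposite-strand start. Median signal was 206 in the members behind a same-strand gene, 174 in those facing an opposite-strand start and 166 and 171 in those inside a gene on the same and on the opposite strand. In core peaks the medians were 186, 203, 174 and 190 in the same order, so those facing an opposite-strand start were higher there. Among examples close to an upstream 3′ end, acs-14, an acyl-CoA synthetase gene, had its summit 35 bp from the end of haao-1, and ttm-1, a zinc exporter gene, 48 bp from the end of bckd-1A.

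Signal values are the authors' own, on the scale of a peak caller that is not given in the sources used here. They are compared within a list only, except where a member's values in both replicates are set side by side. Read depth is unknown. Members spanned 93.2 to 1580, with a median of 186 and quartiles of 135 and 289, against a median of 190 and quartiles of 131 and 303 in the core promoter. In the strongest peaks of replicate 1 the far-upstream median was 100.8 and the core median 103.9, a difference of -3.15. In replicate 2 the medians were 88.1 and 88.09, a difference of 0.00958. With 2 replicates an exact sign-flip test, two-sided, cannot go below p = 0.5, so none was made, and the sign of the difference was not the same in each. Rank 702 or better in the list was reached by 33 members (6.89%), 143 core peaks (9.09%) and 695 of all nuclear peaks (9.90%).

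Each member overlapped some peak in each replicate, and 430 of 479 (89.8%, 86.7 to 92.2) overlapped one of the 7038 strongest of both, which is the share in all nuclear thresholded peaks (89.8%) and close to the core (88.9%). The threshold was set from these replicates, so this overlap describes the list and does not test it. With only the 3519 strongest peaks of each replicate the share was 50.9%. The median distance from a member's summit to that of the replicate was 8 bp in each, and 94.2% in replicate 1 and 94.8% in replicate 2 were within 50 bp. By strength, every one of the 120 members in the highest of 4 equal ranges of rank (signal 291 to 1580) was strong in both replicates, against 72 of 119 (60.5%) in the lowest range (93.2 to 134). From the highest range to the lowest, 85.8%, 76.7%, 68.3% and 72.3% were intergenic.

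Values in the replicates differed by more than 2-fold for 22 of 479 members (4.59%), a count not made for other peaks. Of the 22 members, 9 were among the 69 whose interval held several summits (13.0%). The other 13 were among the 410 with an interval of their own (3.17%). The ifo-1 summit, with 92.0 in replicate 1 and 375 in replicate 2, and the weaker nhr-69 summit, with 73.4 and 11.7, were 2 of those in shared intervals. F28H1.1 had an interval of its own and values of 70.2 in replicate 1 and 5.69 in replicate 2.

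**Figure D3:**
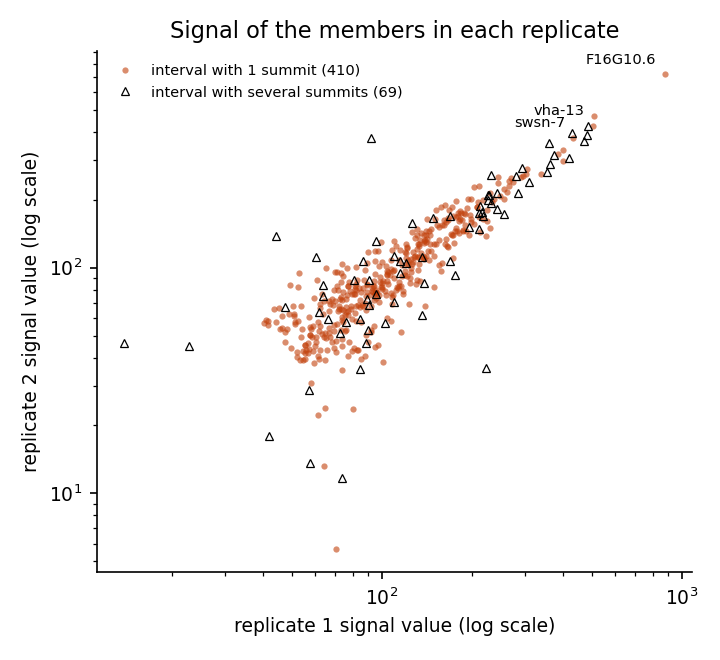
Signal value of each of the 479 members in replicate 1 (x axis) and replicate 2 (y axis), both on log scales; filled circles are the 410 members in an interval with 1 summit and open triangles the 69 in intervals with several. F16G10.6 was highest in both at 877 and 718, and 22 points differed by more than 2-fold.

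The 20 strongest members were taken from those strong in both replicates. F16G10.6 on II (summit 2378711, 860 bp upstream) had 877 in replicate 1, 718 in replicate 2 and 1580 in the thresholded list, the highest in all 3. The next, maph-1.1 on I, had 508, 468 and 977, so F16G10.6 stood well above it. The summit of vha-13, which encodes the catalytic A subunit of the vacuolar proton pump, was 561 bp upstream on V at 14351148 and had 504 in replicate 1, 425 in replicate 2 and 925 in the thresholded list. For C09G9.1 the values were 488, 423 and 910 in the same order.

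The sodium and potassium pump gene eat-6 had 481 in replicate 1, 387 in replicate 2 and 865 in the thresholded list at 522 bp. Next came cgh-1, a DEAD-box RNA helicase gene of the germline, with 472, 365 and 841 at 628 bp. The swsn-7 summit, 740 bp before a gene for a SWI/SNF chromatin remodelling subunit, had 434, 376 and 805 and lay in a noncoding gene. In each of these genes replicate 1 was above replicate 2, as it was for 365 of the 479 members, with a median ratio of 1.16. Values were higher in replicate 1 across the list as well. The median over all autosomal peaks was 105 in replicate 1 and 89.3 in replicate 2.

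Further down the 20 were cbp-1, the CBP and p300 type acetyltransferase gene (375 in replicate 1, 317 in replicate 2, 686 in the thresholded list) and bud-31, a splicing factor gene (364, 288 and 655). The calcineurin A gene tax-6 had 340, 261 and 602. The glycogen synthase gene gsy-1 had 294, 277 and 573 at its stronger summit. The last of the 20 was nhr-31, an HNF4-related receptor gene known for controlling vacuolar pump genes in the excretory cell, with 301, 259 and 563 at 784 bp. With the range begun at 600 bp, 18 of the 20 genes still had a member. At eat-6, F42A10.7 and C31H5.6 this was only a weaker summit further out, with 141, 155 and 225 in the thresholded list.

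**Figure D4:**
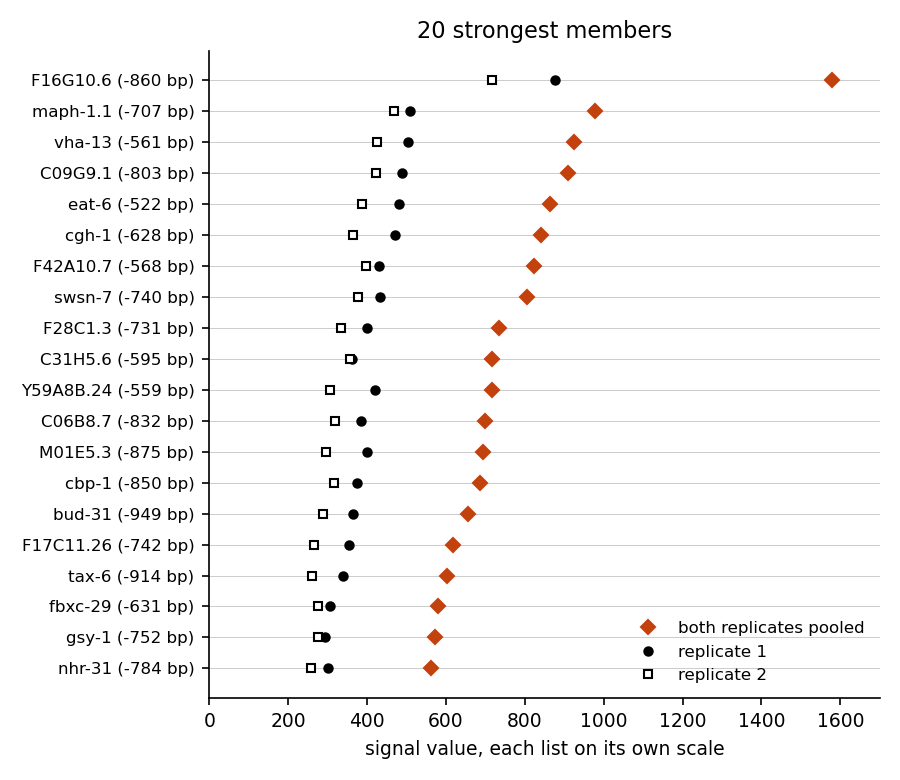
Signal value of the 20 strongest members, with the distance upstream beside each gene name; diamonds are the thresholded list of both replicates, circles replicate 1 and squares replicate 2. F16G10.6 stands apart at 1580, and the others run down to 563 at nhr-31.

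At all 26 genes with a pair of members, both summits lay in 1 interval, and in 20 of the 26 their signal values were more than 2-fold apart. The ratio of the stronger to the weaker ran from 1.34 to 7.23, with a median of 3.05. The pairs named next are those with the highest signal, while at sptl-3 the summits had 413 and 309. At eat-6 the summit at 522 bp had 865 and that at 748 bp had 141. At cgh-1 the summits at 628 bp and 850 bp had 841 and 136, and at F42A10.7 those at 568 bp and 784 bp had 823 and 155. The cbp-1 pair had 686 at 850 bp and 94.8 at 634 bp. Members shared their interval with another summit in 14.4% of cases, against 8.20% in the core promoter and 10.6% of all autosomal peaks. No other summit lay within 1000 bp of 63.3% of members, against 78.4% in the core and 72.4% of all autosomal peaks. Peaks outside protein-coding genes and further upstream than the members had 10.9% and 66.9% in the same order. Their share with no other summit nearby was thus below that of the core as well.

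Core summits at the same genes were counted next. Of the 453 genes, 75 (16.6%) also had a core summit, close to the 14.0% of all autosomal protein-coding genes that had one, and 76 of the 479 members (15.9%, Wilson interval 12.9 to 19.4) belonged to such genes. The share of members was 16.1% in replicate 1's list and 14.1% in replicate 2's. With starts of all transcripts it was 24.6%, in a different set of 574 peaks. It was 9.39% when the core reached only 300 bp upstream and 5.75% among peaks above the list's median signal. In 30 of the 75 genes (40.0%) the member was the stronger of both sites, and the medians were 166 for the strongest member and 211 for the strongest core summit. The far summit led most at hmit-1.3 with 430 against 104, a ratio of 4.14, at Y59A8B.24 with 717 against 176 and at the ribosomal protein gene rps-18 with 452 against 111. The core summit led at ifo-1, with 153 for the member and 860 for the core, and at the Smad gene sma-2, with 280 and 526.

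How often a gene had no annotated 5′ UTR was also compared. The annotated 5′ end was the first coding base, so that no 5′ UTR was annotated, for 11.5% of members and 8.84% of core peaks. Those shares count peaks. Counted by gene, it was so for 24.1% of all autosomal protein-coding genes. The difference between members and core peaks was 2.65 percentage points, with an interval of -0.318 to 6.07.

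Genes of fatty acid metabolism were then followed. Over all 17242 autosomal protein-coding genes, 453 (2.63%) had a member, with a median signal of 191 for the strongest. Of the 7 desaturase genes only fat-4 had one, with 97.6 in replicate 1, 102 in replicate 2 and 195 in the thresholded list at 818 bp upstream. Among 14 genes of fatty acid synthesis and elongation there were 3, elo-9, hpo-8 and elo-2. A single-gene core peak lay at 6 of the 14, against 8.65% of all autosomal genes. The elongase gene elo-9 had 188 in replicate 1, 175 in replicate 2 and 367 in the thresholded list, and elo-2 had 92.7, 81.6 and 173 beside a core summit of 199. The hpo-8 summit (89.0, 85.0 and 175) fell in a coding exon of T15B7.15. No member was assigned to nhr-80, nhr-49, nhr-13, sbp-1, mdt-15 or lipl-4.

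Acyl-CoA synthetases, which activate fatty acids, had 4 of 18 genes in the set. These were acs-4 (177 in replicate 1, 197 in replicate 2, 373 in the thresholded list), acs-14 (141, 165 and 304), acs-12 (133, 104 and 235) and acs-2 (112, 81.8 and 188). The acs-2 gene, a well-known target of the receptor NHR-49 in fasted worms, had its summit 682 bp upstream and no core summit. Of the 4, acs-14 alone had a core summit as well, at 113. Of all 18 genes, 4 had a single-gene core peak.

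Breakdown of fatty acids was covered by 27 mitochondrial and 24 peroxisomal genes, with 4 members each. In mitochondria they were hacd-1 (345 in the thresholded list), ech-2 (221), acs-2 (188) and acdh-1 (137), an acyl-CoA dehydrogenase gene of the propionate shunt. In peroxisomes they were acox-1.1 (395), an acyl-CoA oxidase gene of ascaroside synthesis, ech-9 (269) and the transporter genes pmp-2 (165) and pmp-5 (150). In each replicate acox-1.1 was the highest of this group, with 193 in replicate 1 and 201 in replicate 2. Of 17 lipase and lipid droplet genes there was 1, fil-2 (374), a fasting-induced lipase gene. Of 14 lipid-binding protein genes there was 0, though 4 of the 14 had a single-gene core peak. Among 23 genes for lipid-regulating factors, pqm-1 (119 in replicate 1, 117 in replicate 2, 234 in the thresholded list) and klf-3 (119, 96.8 and 216) had a member. Single-gene core peaks lay at 6 of the 27 mitochondrial and 9 of the 24 peroxisomal genes. They also lay at 9 of the 17 lipase and lipid droplet genes and 10 of the 23 regulator genes. Over all autosomal genes that share was 8.65%, so these lists were not high in members alone.

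Markers of the intestine, the main fat-storing tissue of the worm, had 4 of 26 genes with a member, against the 2.63% of all autosomal genes. A single-gene core peak lay at 15 of the 26, against 8.65% of all autosomal genes, so the list was not high in members alone. No difference between tissues was tested. The aspartyl protease gene asp-1 had 179 in replicate 1, 174 in replicate 2 and 354 in the thresholded list, and the sodium and proton exchanger gene nhx-2 had 127, 117 and 240 beside a stronger core summit of 364. The ferritin gene ftn-1 had 77.7, 46.7 and 126, and cdr-4, a gene known for its response to cadmium, had 64.6 in replicate 1 and 39.0 in replicate 2. Of the hypodermis, body-wall muscle and pharynx markers 0 of 13, 0 of 15 and 0 of 15 had a member. Neurons had 1 of 23, the peptide-processing gene egl-21 (168, inside a coding exon of F01D4.5), and the germline 1 of 40, cgh-1. At 2.63% the tissue lists of 13 to 26 genes would each hold less than 1 such gene. A count of 0 of 13 allows a share of up to 23.1% (3 counts of the total).

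Transport and metal genes were next. Metal and heme homeostasis had 4 of 19 genes, which included ftn-1 and cdr-4 again, the ferroportin gene fpn-1.1 (131 in replicate 1, 139 in replicate 2, 272 in the thresholded list) and ttm-1 (138, 109 and 246). ABC transporters had 5 of 32, with abt-4 (286) the highest and pgp-9 (81.5, 63.1 and 145) carrying 3 TGATAA matches as shown above. The vacuolar pump and lysosome list had 2 of 21, vha-13 and vha-16. The vha-16 member had 48.3, 53.6 and 107 beside a core summit of 211, so the strengths of the pair were far apart. That member was not among the strong peaks of both replicates. Single-gene core peaks lay at 5 of the 19 metal and heme genes and 10 of the 32 ABC transporter genes. They lay at 7 of the 21 pump and lysosome genes, against 8.65% of all autosomal genes.

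Large families of the intestine and of defence had shares on both sides of 2.63%. Glucuronosyltransferases had 4 of 63, led by ugt-49 (274 in replicate 1, 240 in replicate 2, 515 in the thresholded list), and glutathione transferases 1 of 41, gst-5 (225). Cytochrome P450 genes had 0 of 67 with a member and 23 of 67 with a single-gene core peak, which 8.65% of all autosomal genes had. C-type lectins had 4 of 234 and lysozymes 2 of 15 with a member. Core peaks of a single gene lay at 23 of the 63 glucuronosyltransferase and 14 of the 41 glutathione transferase genes. They lay at 30 of the 234 lectin and 3 of the 15 lysozyme genes. Nuclear hormone receptors had 7 of 246 with a member and 55 of 246 with a core peak. Beside nhr-31 they were nhr-69 (383), nhr-79 (324), nhr-88 (211), nhr-114 (171), nhr-116 (157) and nhr-61 (149), so that nhr-31 was the highest of the 7.

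Signalling genes with a member were mostly below the members' median of 186. The EGF receptor gene let-23 had 209 in replicate 1, 196 in replicate 2 and 404 in the thresholded list, while the RAS gene let-60 further down that pathway had 54.2, 53.5 and 110. The TGF-beta type II receptor gene daf-4 had 114 in the thresholded list and was not among the strong peaks of both replicates, and sma-2, a Smad gene of the same kind of pathway, had 140, 145 and 280. Of 22 immune and stress signalling genes there were 3, with the receptor gene fshr-1 (150) and the p38 kinase gene pmk-2 (120) beside sma-2. A single-gene core peak lay at 8 of the 22. Of 21 insulin and TOR signalling genes the S6 kinase gene rsks-1 (66.7, 54.2 and 115) was the 1 member. The Hox and homeobox list had 1 of 40, unc-62 (130), and the list of GATA and other endoderm factors 1 of 28, egl-27 (430). Factors of the bHLH, bZIP and T-box families had 0 of 26, 0 of 25 and 0 of 18, and genes of the unfolded protein response 0 of 20. A single-gene core peak lay at 2, 7, 1 and 6 genes of these lists, in the same order.

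Sequence at the summit was examined on either strand within 50 bp. TGATAA was present at 196 of 479 members (40.9%, Wilson interval 36.6 to 45.4), against 37.9% of all nuclear peaks and 41.3% of core peaks. The difference from the core was -0.340 percentage points, with an interval of -5.30 to 4.73. In the replicates' own lists it was present at 39.0% of far-upstream peaks and 39.5% of core peaks in replicate 1, and at 37.8% and 39.5% in replicate 2. Flanks 200 to 250 bp from the members' summits held it in 12.1%, and windows of equal width tiled along the whole far-upstream zone in 9.75%. Within the members the share ran from 32.1% on IV to 49.1% on II, and was 44.2%, 40.8%, 43.3% and 35.3% from the highest range of rank to the lowest.

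Copies of the site were matched with signal in a loose order. Members with no TGATAA had a median of 182 (283 peaks), those with 1 copy 187 (136 peaks) and those with 2 or more 201 (60 peaks), all within the quartiles of the others. Core peaks had 174, 200 and 221 in the same order. Matches gathered at the summit: each bin of 25 bp within 50 bp had a match starting in 54 to 72 of the 479 members, and the bin from 250 to 226 bp before the summit in 18.

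**Figure D5:**
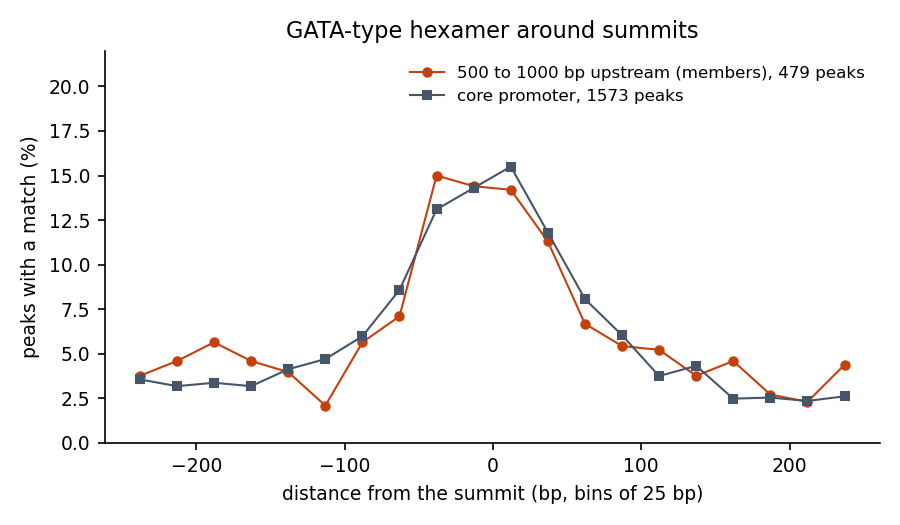
Share of peaks (%) in which the GATA-type hexamer, on either strand, begins in each bin of 25 bp around the summit, for 479 members (orange circles) and 1573 core peaks (grey squares). Both lines rise within 50 bp of the summit, to at most 72 of the 479 members in a bin.

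GAGAGA was the next most frequent of the 8 sequences counted. It was found at 106 members (22.1%, 18.6 to 26.1), against 19.3% of core peaks, 8.14% of the members' flanks and 5.21% of tiled windows. It was present in 14.3% of members with TGATAA and in 27.6% of those without, and 205 members (42.8%) had neither. All autosomal peaks had 12.6% and 25.7% in the same order, and 45.7% of them had neither. Median signal was 237 in the 28 members with both, 188 with TGATAA only, 185 with GAGAGA only and 182 with neither.

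The other sequences were rarer. AGATAA, another GATA-type site, was at 11.9% of members against 6.05% of their flanks. CACGTG, the E-box of bHLH factors, was at 4.18% against 2.30%, and GTAAACA, the DAF-16 type forkhead site, at 2.51% against 1.25%. AGGTCA, the unit that many nuclear receptors recognise, was at 2.30% of members, 1.88% of flanks and 2.46% of tiled windows. TGAGTCA, a bZIP site, was at 2.30% against 0.626% of flanks. A run of T, TTTTTTTT, was less frequent at summits than in flanks, at 5.43% against 11.9%. All nuclear peaks differed from their flanks in the same directions. They had AGATAA at 9.70% against 6.35%, CACGTG at 4.25% against 1.97% and GTAAACA at 2.34% against 1.34%. For AGGTCA they had 3.33% against 2.54%, for TGAGTCA 1.99% against 1.05% and for TTTTTTTT 6.32% against 11.4%. TGATAA does not contain AGATAA, so those counts are of separate matches, and a match shows only that the letters are present.

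Small RNA genes lay under or beside some members. A gene of the annotation's ncRNA class was within 200 bp of 52 members (10.9%), against 6.87% of core peaks, a difference of 3.99 percentage points (interval 1.16 to 7.30), and 10.4% of all autosomal peaks. Genes for snRNA were near 6 members (1.25%) and 3 core peaks (0.191%), a difference of 1.06 points (0.291 to 2.52). All autosomal peaks had one near in 0.408%, and 2 of the 6 members were at the same gene, sls-2.1. Genes for snoRNA were near 8 members (1.67%) and 14 core peaks (0.890%), and the interval of that difference spanned 0 (-0.236 to 2.41). All autosomal peaks had a snoRNA gene near in 1.69%. Genes for tRNA were near 7 members (1.46%, Wilson interval 0.710 to 2.99), against 1.40% of core peaks and 2.39% of all autosomal peaks.

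The snoRNA cases lay in the same place. In all 8 the summit was 22 to 79 bp upstream of the snoRNA's own start, and this was so (within 100 bp upstream) in 8 of the 14 core cases and 55 of the 91 autosomal ones. The F17C11.26 summit was 79 bp upstream of the snoRNA gene F17C11.24 and had 355 in replicate 1, 265 in replicate 2 and 619 in the thresholded list. The mrpl-23 summit was 22 bp upstream of T08B2.13 (198, 164 and 363), and the fbxa-83 summit 69 bp upstream of Y67A10A.14 (167, 181 and 348). None of the 8 held TGATAA. At H41C03.3 the stronger member was 51 bp upstream of sls-2.1, a gene for a spliced leader RNA, with 189, 173 and 357. Of the 6 snRNA cases only 2 lay upstream in this way, and the other 4 were 71 to 170 bp past the start of the RNA gene.

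The last comparison was with peaks that did not pass the threshold. Of 1871 far-upstream single-gene peaks in the pooled list, 479 passed (25.6%, Wilson interval 23.7 to 27.6), against 1573 of 4884 in the core (32.2%). The difference was -6.61 percentage points (interval -8.94 to -4.20), and 21.9% of all autosomal pooled peaks passed. Of the 1175 far-upstream pooled peaks that overlapped no thresholded peak, 14.6% had TGATAA and 44.6% were intergenic, against 40.9% and 75.8% of members. The drop was not particular to members. Core peaks left out in the same way had TGATAA in 15.6% and were intergenic in 52.0%, against 41.3% and 75.4% of thresholded core peaks. Over all autosomal peaks the shares were 12.7% and 27.7%, against 38.5% and 59.3%. Passing depends on signal, so these groups differ in strength by construction.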

How the data were processed

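The deposited files are lists of ChIP-seq peaks on the ce11 build. Each peak carries a signal value from the authors' peak caller, and per the file headers and notes the lists were called against a control. The authors then derived the thresholded list from the others. Which aligner, caller and reproducibility limit they used is not given in the sources used here. No read counts are held, so depth is unknown and no value has an interval from depth. The ce10 lists were not used, and 18 mitochondrial peaks were left out.

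Summits were placed on the Ensembl annotation of WBcel235, the assembly of ce11, with coordinates written 1-based. A replicate's value at a member is that of the overlapping peak whose summit is nearest. Shares carry 95% Wilson intervals and differences 95% Newcombe intervals. The strongest 7038 peaks of each replicate gave the spread (n = 2). Named genes are the 20 strongest members strong in both replicates, up to 4 members of each of 40 gene lists, fatty acid regulators, the 5 peaks on each side of both distance limits, and genes with 2 members. Genes nhr-114, nhr-116, nhr-61, ifo-1, sptl-3, F28H1.1, hmit-1.3 and the small RNA cases were added after their values were seen. The members and lists were chosen with earlier results of these data known. Classification, overlap and intervals were tested on simulated data and against bedtools 2.31.1. Python 3.11.15, numpy 2.4.6, pandas 2.3.3 and matplotlib 3.10.9 were used.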

Additional observations from a re-analysis of the deposited data

How the results depend on the processing

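Of 62 values recomputed under alternatives, 45 stayed within the main value's interval, spread or 1.5 times its count. The number of members was 226 among peaks above the list's median signal, against 479. The ratio of far-upstream to core median signal, 0.979, became 1.00 with 1 summit per interval. TGATAA was at 50.7% of members within 100 bp and GATAA at 53.0% within 50 bp. The share of far-upstream peaks whose gene also had a core summit was 5.75% above the median signal, 24.6% with transcript starts and 9.39% with the 300 bp core. The share inside another gene was 13.7% above the median signal and 10.6% with transcript starts. The share strong in both replicates was 100% above the median signal or with all replicate peaks, 84.3% by summits within 100 bp and 50.9% with the 3519 strongest peaks of each. In bins of 50 bp the densest bin had 1.80 times the density of the sparsest, against 1.36 in bins of 100 bp. The cause of these shifts was not tested, apart from the narrower or wider criteria themselves. Leaving out 1 replicate gave 476 to 479 members, a signal ratio of 0.970 to 1.00, TGATAA at 37.8% to 39.0%, a core summit in 14.1% to 16.1%, 16.8% to 18.0% inside another gene and 94.2% to 95.2% among the strong peaks of the other replicate. RefSeq gene starts, an alternative chosen after seeing the data, gave 489 members, 454 of them the same; the replicates taken singly for the last share were also chosen then. With transcript starts 449 of the 479 remained. No paired analysis was possible because there was 1 group. Depth is unknown, so weak members near the threshold cannot be given a counting error.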
